A study of Mus musculus with 16 samples.

Results

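Regional identity transcription factors are described here by 8 genes, Gata4, Gata5, Gata6, Onecut2, Pdx1, Cdx1, Cdx2 and Osr2, which were found by gene symbol, 1 row each, among the 48440 gene rows of each segment's expression table. The study compared vertical sleeve gastrectomy (VSG), a bariatric operation that removes most of the stomach, with sham surgery, and sequenced RNA of sorted cells from the duodenum, jejunum and ileum. The 16 libraries came from 7 female mice with 1 library per segment and mouse. The same 6 mice (4 VSG, 2 sham) gave the 6 duodenal and 6 jejunal libraries, and 4 libraries (2 VSG, 2 sham) were ileal. Within a surgery group, equal replicate numbers mark 1 mouse. Libraries that had been set aside for low mapping are not analysed here.

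All mice carried Lgr5-EGFP, in which the Lgr5 locus drives the green fluorescent protein EGFP. The sorted cells are those that held EGFP, which the paper describes as stem or progenitor cells. VSG and sham groups alike had received a 60% high-fat diet for 16 weeks, and both were studied 4 weeks after surgery, 15 minutes into the response to a liquid meal after an overnight fast. From each mouse 6 cm of every segment was taken, cells that stained for CD31, CD45, annexin V or the dead-cell dye Sytox blue were excluded, and GFP+ cells were collected as intestinal stem cells (ISCs). In such bulk libraries, fewer cells of a type and less RNA per cell cannot be told apart.

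The gut epithelium keeps a memory of its position, and a small group of transcription factors holds that address in the crypt. GATA4 is known for maintaining proximal identity and for repressing ileal bile acid genes, GATA6 is shared more evenly along the small intestine, and PDX1 and ONECUT factors belong to the duodenal and pancreatic domain. CDX1 and CDX2 are caudal homeobox proteins that specify intestine against stomach, and OSR2 is an odd-skipped zinc finger protein.

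Pdx1 and Cdx2 are neighbours on mouse chromosome 5 (GRCm38), where 24956 bases separate the end of Pdx1 (147269959 to 147275848, plus strand) from Cdx2 (147300805 to 147307270, minus strand), and their levels ran in opposite directions along the gut after joint scaling. Gata5 (chromosome 2, 180325133 to 180334699, minus strand) was highest where Gata4 was lowest. The bases just upstream of these 3 genes are shown because these members differed between segments and could be matched to the RefSeq promoter table (GRCm38.p6), from which 3 of the 8 members are printed. The stretches lie at chr5:147269847-147269958 (112 bases, plus strand), chr5:147307271-147307499 (229 bases, minus strand) and chr2:180334700-180334929 (230 bases, minus strand), and each ends before the first base of the gene in GENCODE M21 and in RefSeq.
Pdx1: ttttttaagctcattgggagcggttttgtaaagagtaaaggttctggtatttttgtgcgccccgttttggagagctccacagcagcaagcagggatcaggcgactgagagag
Cdx2: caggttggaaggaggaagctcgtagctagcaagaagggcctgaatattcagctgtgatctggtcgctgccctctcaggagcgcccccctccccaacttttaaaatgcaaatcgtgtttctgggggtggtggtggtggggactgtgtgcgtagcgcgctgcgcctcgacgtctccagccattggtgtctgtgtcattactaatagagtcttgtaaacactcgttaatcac
Gata5: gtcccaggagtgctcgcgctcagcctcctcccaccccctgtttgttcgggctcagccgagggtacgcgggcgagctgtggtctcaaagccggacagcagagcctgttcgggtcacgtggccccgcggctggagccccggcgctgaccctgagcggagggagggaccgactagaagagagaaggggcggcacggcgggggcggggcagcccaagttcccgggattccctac
The letters are lower case throughout, as no searched motif was found in any of the 300-base windows from which they were taken. The GATA motif searched was GATAA with its reverse complement TTATC, which 25.4% of the 32817 promoter windows of that length held, and the CDX motif was TTTAT with ATAAA, which 40.01% held. The motifs can share bases where they run together, and an absent match says only that these letters are not in the windows.

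Expression was analysed as normalized counts, which the authors had computed within each segment, so VSG and sham were compared within a segment on the deposited values. To set segments side by side, all 16 libraries were scaled jointly by the median of ratios over 7291 genes above 0 in every library. These jointly scaled counts carry no test between segments, because each segment's table had been normalized on its own, and after the scaling the median of 16269 genes was still 0.19 higher on the log2 scale in the duodenum than in the jejunum, 0.57 higher in the jejunum than in the ileum and 0.88 higher in the duodenum than in the ileum. Implied depth was 33.7 to 63.6 M reads (duodenum), 22.2 to 57.8 M (jejunum) and 10.9 to 36.4 M (ileum). In the ileum both VSG libraries (36.4 and 32.0 M) were deeper than both sham libraries (21.5 and 10.9 M). Depth and surgery cannot be told apart in the ileal comparisons. Of genes with a mean above 50, 11.6% were listed at 0 in at least 1 duodenal library, 20.2% in the jejunum and 36.1% in the ileum, so a 0 is given here as listed and no fold is computed against it. Among the stem cell markers, Lgr5 had median jointly scaled counts of 1102 (duodenum), 550 (jejunum) and 472 (ileum), and was listed at 0 in 1 jejunal and 1 ileal library.

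The library labelled jejunum VSG replicate 1 stood apart from the other jejunal libraries. Fabp6, the ileal bile acid binding protein, was 191139 in it, where the other 5 from the jejunum ranged from 15.5 to 285 and ileal ones from 47861 to 347560. The bile acid transporter genes Slc10a2 (5712 against 0 to 144) and Slc51a (37319 against 4535 to 9289) were likewise high, and the sum of 9 ileal genes was 279813, where the rest of the jejunum had 12379 to 42576 and the ileum 141622 to 513060. The proximal genes Apoa4 (7327 against 65986 to 411182) and Fabp1 (7152 against 53105 to 175148) were below all other jejunal libraries, as were Lct, Gip and Cck. Other proximal genes lay inside the range of the other jejunal libraries, namely Sct (1251 in 831 to 1409), Ghrl, Slc11a2 and Slc40a1. So did the ileal genes Cubn (14131 in 1514 to 23580) and Amn (4855 in 2794 to 6586). This library is therefore named apart in the jejunal results.

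Gata4 was high in the duodenum and jejunum and low in the ileum. Gata4 (chromosome 14, 63198922 to 63271692, minus strand) had jointly scaled counts of 4819, 6429 and 7183 in the duodenum (lowest, median and highest of 6). In the jejunum VSG replicate 1 had 313, and the other 5 libraries had 4507, 5366, 6247, 5050 and 5425. The ileal libraries had 1657 and 1546 after VSG and 850 and 0 after sham surgery. Duodenum and ileum did not overlap, and the jejunum without VSG replicate 1 did not overlap with the ileum either. With VSG replicate 1 set apart, duodenal Gata4 was 1.17 times the jejunal mean (1.38 times with it), and the ranges overlapped.

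Gata5 ran the other way. Jointly scaled Gata5 counts were 1441, 1960 and 2247 in the duodenum and 2076, 2333 and 3232 in the jejunum, where VSG replicate 1, at 2493, lay inside the range of the others. In the ileum the VSG libraries had 5049 and 6094 and the sham libraries 6791 and 8472. Every ileal library was above all libraries of both other segments, and the ileal mean was 3.50 times the duodenal and 2.61 times the jejunal mean, and also 2.61 times the jejunal mean without VSG replicate 1. Within the 3 mice that had both segments, the ileum exceeded the duodenum by 1.69 ± 0.28 (SD) on the log2 scale. Without joint scaling this excess fell to 0.40 ± 0.27 (SD) and the ileal range overlapped with both other segments.

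Gata6 (chromosome 18, 11052064 to 11085635, plus strand), which is co-expressed with Gata4 in many endodermal tissues, had overlapping ranges in all 3 segments after joint scaling. Its jointly scaled counts were 3296, 4086 and 5040 in the duodenum and 2709, 3766 and 6074 in the jejunum, with VSG replicate 1 the lowest jejunal library. Ileal counts were 3199 and 3474 after VSG and 1702 and 1833 after sham surgery, and they reached into the ranges of both other segments. That overlap depended on the scaling, since every duodenal library was above every ileal one without joint scaling, with equal totals and with quantile normalization, and the within-mouse difference without joint scaling was 2.32 ± 0.66 (SD, n = 3). The within-mouse difference of duodenum over ileum was 1.03 ± 0.64 (SD, n = 3) on the log2 scale, close to the 0.74 by which the median of all genes differed in the same mice.

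Divided by exon length, the 3 GATA genes exchanged places while the ranges of their jointly scaled sum overlapped. The exon unions are 3.904 kb for Gata4, 3.277 kb for Gata5 and 6.508 kb for Gata6. Their summed level per kb was 2408 to 3074 in the duodenum, 2508 to 3167 in the jejunum without VSG replicate 1 and 2457 to 2867 in the ileum. Gata4 made up 51.3% to 63.4% of that sum in the duodenum, 40.8% to 56.2% in the jejunum without VSG replicate 1 and 0 to 17.3% in the ileum. Gata5 made up 15.04% to 27.2%, 22.6% to 36.6% and 62.7% to 90.2%, in the same order. In jejunum VSG replicate 1 the sum was 1257, below all other libraries, with 6.37% Gata4, inside the ileal range, 60.5% Gata5, just under the ileal range, and 33.1% Gata6, above all other libraries. Shares within a library do not depend on a scaling factor common to that library. A factor that differs between genes, as the deposited values of most genes carry, would not cancel. Of these 3 genes, Gata5 and Gata6 came to whole numbers of implied reads in every library. Gata4 did not, with 213.778 in jejunum VSG replicate 1, so this limit falls on the Gata4 share.

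**Figure D1:**
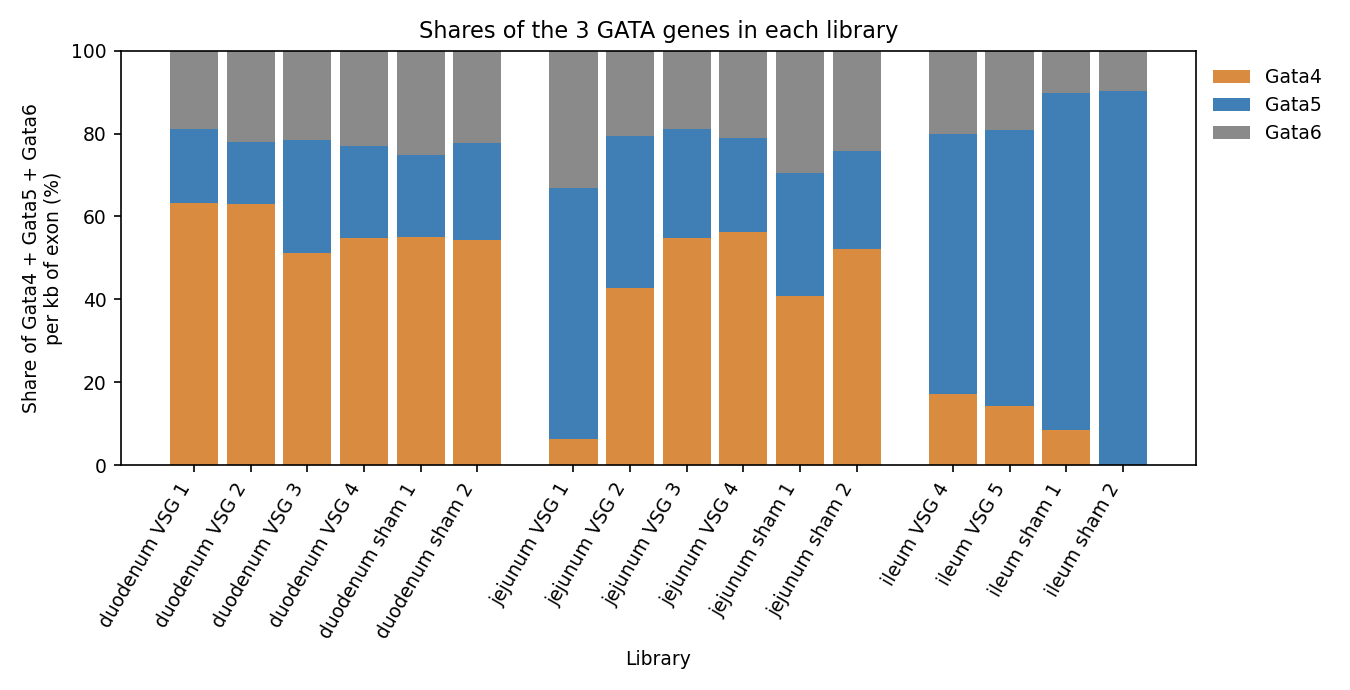
Stacked bars give the share (%) of Gata4, Gata5 and Gata6 in their sum per kb of exon, 1 bar per library, grouped by segment. Gata4 takes 51.3% to 63.4% in the duodenum and at most 17.3% in the ileum, and jejunum VSG replicate 1 has 6.37%.

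Onecut2 and Pdx1 were the duodenal members. Onecut2 (chromosome 18, 64340020 to 64400987, plus strand), a factor with a cut domain and a homeodomain, had jointly scaled counts of 3691, 4548 and 6373 in the duodenum. In the jejunum it was listed at 0 in VSG replicate 1, and was 1288, 216 and 1695 in the other VSG and 853 and 948 in the sham libraries. All 4 ileal libraries were listed at 0. No duodenal library overlapped with another segment, and without VSG replicate 1 the duodenal mean was 4.68 times the jejunal mean.

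Pdx1, the homeobox gene of duodenum and pancreas, was measured in the duodenum with little signal beyond it. Jointly scaled duodenal Pdx1 was 809, 395, 810 and 989 in the VSG libraries (replicates 1 to 4) and 861 and 1420 after sham surgery. One jejunal library, VSG replicate 2, had 41.2, and the other 5 jejunal and all 4 ileal libraries were listed at 0. Of the pancreatic acinar markers, all 5 were listed at 0 in 4 of the 6 duodenal libraries, and their sum was 983 in VSG replicate 2 and 4587 in VSG replicate 3. Pdx1 was 809 to 1420 in the 4 duodenal libraries with those markers at 0. The summed stomach markers were 99.1 to 1468 in the duodenum, where Pgc, the pepsinogen C gene, was above 0 in every library, and their part in the Pdx1 level was not tested.

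Cdx1 and Cdx2 were high in every library. Cdx1 (chromosome 18, 61018862 to 61036199, minus strand) had jointly scaled counts of 4485, 5264 and 6929 in duodenal, 3665, 5902 and 11011 in jejunal and 4233 to 9277 in ileal libraries, and all 3 ranges overlapped. The jejunal maximum was VSG replicate 1, and the other jejunal libraries reached 7822. Cdx2 had 5690, 6226 and 6935 in the duodenum, 5485, 7866 and 9514 in the jejunum with VSG replicate 1 again the highest, and 10127, 9737, 8092 and 12110 in the ileum. Every ileal Cdx2 value was above every duodenal one, the ileal mean was 1.59 times the duodenal, and the within-mouse difference was 0.60 ± 0.20 (SD, n = 3) on the log2 scale. That order holds after joint scaling, by which the median gene was lower in the ileum, and it turns on the deposited scale without joint scaling, where duodenal Cdx2 was 0.69 higher while the median of all genes was 1.89 higher in the same mice. Without joint scaling the jejunal and duodenal order of Gata5, Cdx1 and Cdx2 also turned. Per kb of exon the ratio of Cdx2 to Cdx1 was 0.636 to 1.06 (duodenum), 0.669 to 1.45 (jejunum) and 0.845 to 2.21 (ileum).

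Osr2 (chromosome 15, 35296098 to 35303305, plus strand) gave the clearest rise toward the distal gut. Its jointly scaled counts were 364, 578 and 766 in duodenal and 1983, 3230 and 3720 in jejunal libraries (lowest, median and highest), and the ileal libraries had 6205 and 3991 after VSG and 7169 and 6231 after sham surgery. No segment overlapped with another, although jejunum and ileum did overlap without joint scaling, with equal totals and with quantile normalization. The jejunal mean was 5.54 times (5.39 without VSG replicate 1) and the ileal mean 10.4 times the duodenal mean, and each of the mice with 2 segments had the higher value in the more distal one. Jejunum VSG replicate 1, at 3556, lay among the other jejunal libraries, unlike its ileal genes. Osr2 exceeded the duodenal level in the jejunum of the same mouse by 2.51 ± 0.75 (SD, n = 6) on the log2 scale, or 2.41 ± 0.79 (n = 5) without VSG replicate 1, and the ileum exceeded the jejunum by 0.99 ± 0.23 (SD, n = 3) after joint scaling but by 0.20 on the deposited scale.

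**Figure D2:**
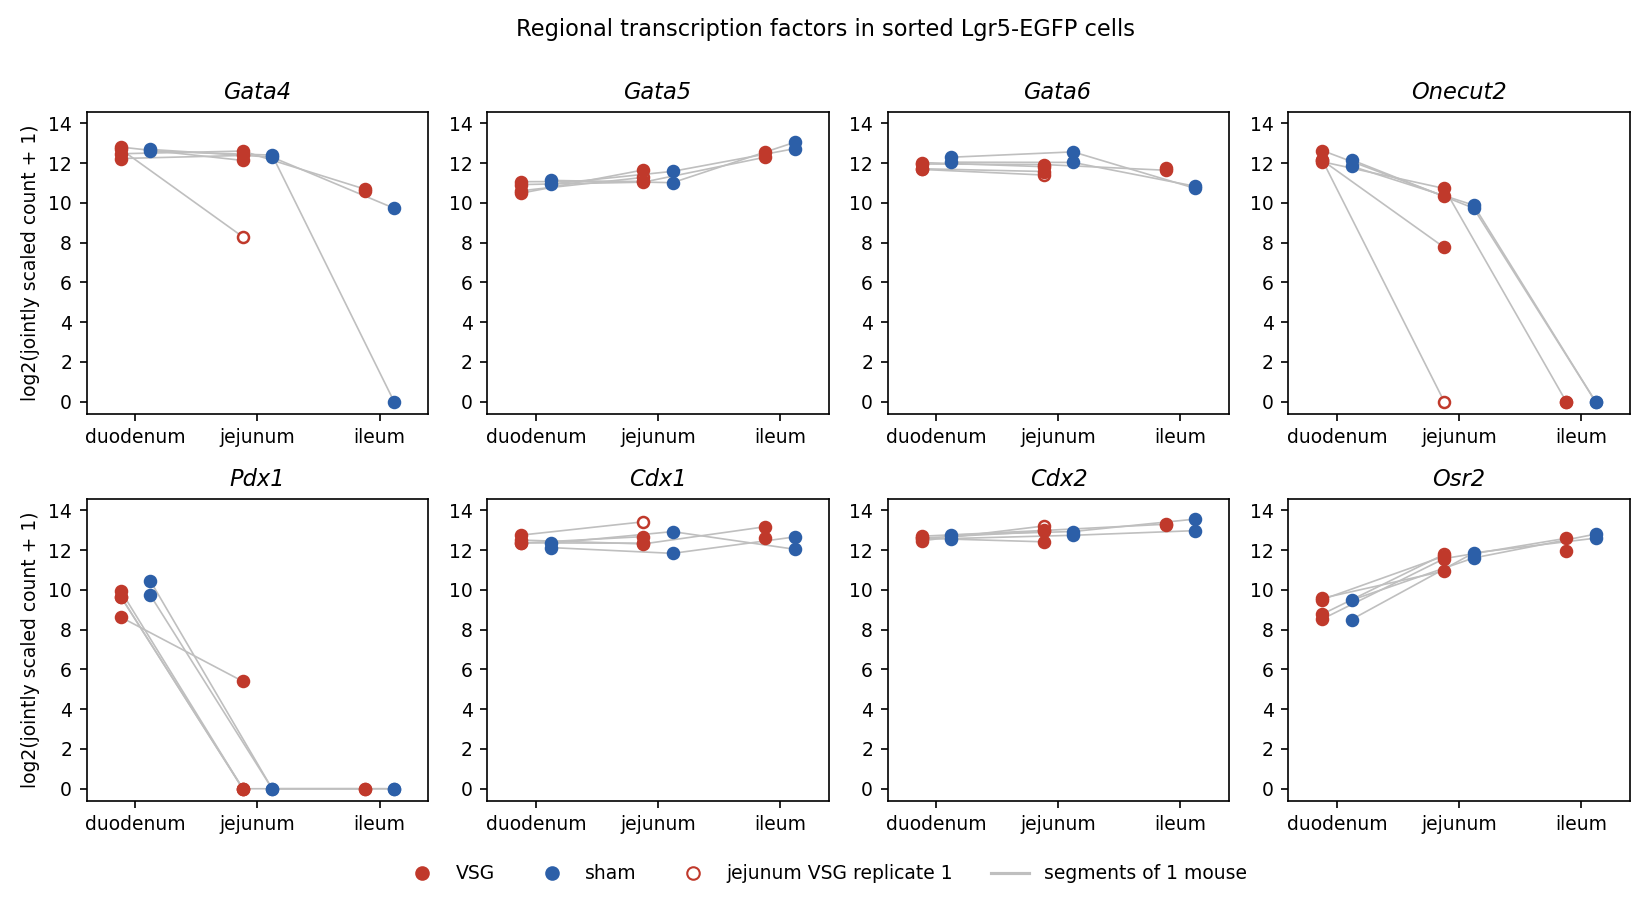
Each panel plots 1 gene as log2(jointly scaled count + 1) by segment, with red points for VSG, blue for sham, a grey line joining the segments of 1 mouse and an open point for jejunum VSG replicate 1. Onecut2 and Pdx1 end at 0 in the ileum, Gata5 and Osr2 rise, and the open point lies below the other jejunal points for Gata4 and Onecut2.

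Counted together, 3 of the 8 members had no overlap between duodenum and jejunum, Onecut2 and Pdx1 with the duodenum higher and Osr2 with it lower. Of 16269 genes, 0.633% had all duodenal libraries higher and 0.701% all lower. Without jejunum VSG replicate 1 the same 3 members were apart, against 0.893% and 0.862%. Between jejunum and ileum, Gata5 and Osr2 were apart with the jejunum lower (1.03% of genes lower, 1.93% higher), and Gata4 and Onecut2 joined them with the jejunum higher once VSG replicate 1 was left out (1.94% lower, 3.04% higher). Between duodenum and ileum 6 members were apart, Gata4, Onecut2 and Pdx1 with the duodenum higher (10.4% of genes) and Gata5, Cdx2 and Osr2 with it lower (4.58%). Which members were apart changed with the scaling. Between duodenum and ileum, Gata6 was apart in place of Cdx2 with equal totals and with quantile normalization, and without joint scaling 7 members were, with Gata6, Cdx1 and Cdx2 higher in the duodenum and Gata5 overlapping. Between jejunum and ileum, Gata5 alone was apart with equal totals and with quantile normalization, and Gata6 alone, higher in the jejunum, without joint scaling. Between duodenum and jejunum, Gata4 joined the other 3 without joint scaling. Since the members were chosen as regional genes, these counts describe them and carry no test.

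Per kb of exon, the duodenal order of medians was Cdx1 (3008), Cdx2 (2754), Gata4 (1647), Gata6 (628), Gata5 (598), Pdx1 (387), Onecut2 (280) and Osr2 (159). Gata4 did not overlap with either neighbour in that order, nor did Onecut2 with Osr2, while the other neighbours overlapped. In the jejunum without VSG replicate 1, the order was Cdx2 (3475), Cdx1 (2988), Gata4 (1375), Osr2 (861), Gata5 (663), Gata6 (600), Onecut2 (58.4) and Pdx1 (0), with Osr2 risen above Gata5, which it overlapped. The ileal order was Cdx2 (4393), Cdx1 (3630), Gata5 (1966), Osr2 (1716), Gata6 (387) and Gata4 (307), and each overlapped with the next except Osr2 with Gata6.

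Summed markers of cell state also changed along the gut. The summed stem cell markers (Lgr5, Olfm4, Ascl2, Smoc2 and Axin2, all 5 measured) were 35496 to 78758 (duodenum), 9120 to 43318 (jejunum) and 8236 to 18225 (ileum). The summed enterocyte markers (Alpi, Apoa1, Apoc3, Anpep and Krt20) were 86100 to 303887, 220144 to 834230 and 439750 to 992478 in the same order. Anpep and Apoa1 had the highest means in that sum, and not every marker rose. Median Alpi was 24011 in the duodenum and 16653 in the ileum, and median Apoc3 was 2739 and 1774. The part of the stem cell and enterocyte markers in the segment levels of the members was not tested. Pan-intestinal factors, which act along the whole small intestine, summed to 57516 to 78265 in the duodenum and 77008 to 84981 in the ileum, and Hnf4a, the largest of them, was 18172 to 30849 and 30105 to 38026. They did not all move alike. Elf3, the next largest, had a median of 22037 in the duodenum (15429 to 27644) and 14426 in the ileum (11105 to 19156).

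Ileal genes stood opposite Gata4 in level. In duodenum and jejunum without VSG replicate 1, Gata4 was at least 4507 and the 9 ileal genes summed to at most 42576, and in the ileum Gata4 was at most 1657 with sums from 141622. Jejunum VSG replicate 1 had the low Gata4 and high sum of the ileal libraries. Of the 5 genes listed as CDX targets, sucrase-isomaltase (Sis) was 28739 to 105367 in the duodenum and 95982 to 230929 in the ileum, and the cadherin gene Cdh17 was 17285 to 32588 and 42818 to 57963. Vil1, the villin gene, was 21920 to 63179 in the duodenum and 86652 to 157134 in the ileum. Lct had the higher median in the duodenum, 13946 against 10958, with overlapping ranges, and Isx overlapped too.

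**Figure D3:**
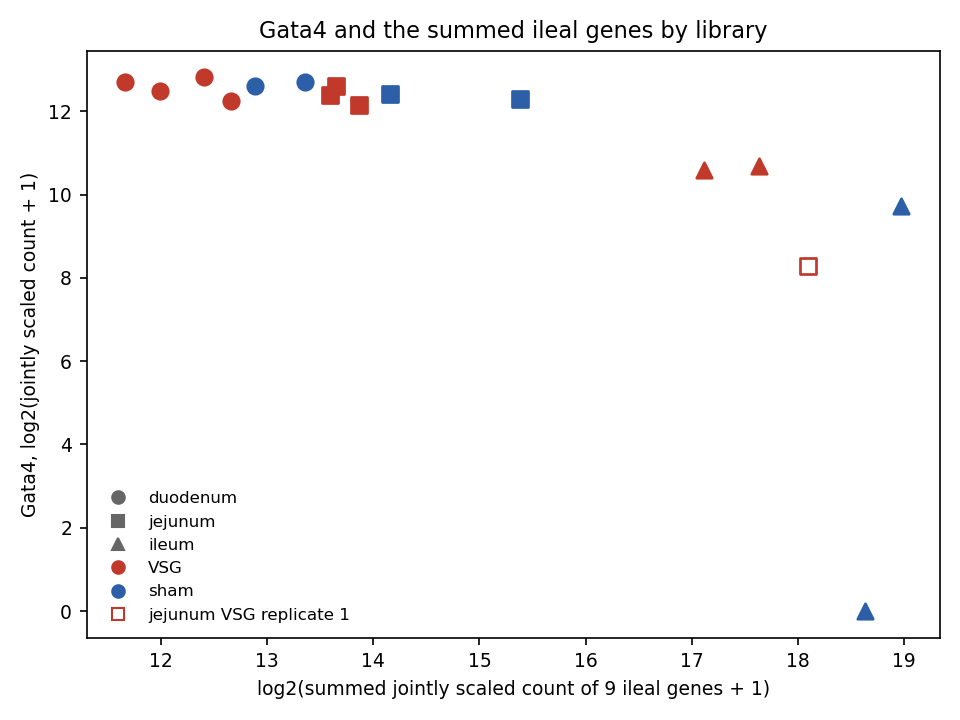
Gata4 as log2(jointly scaled count + 1) is plotted against the log2 sum of 9 ileal genes, 1 point per library, with the shape giving the segment and the colour the surgery. The duodenal and the other jejunal libraries lie at the upper left with Gata4 at 4507 or more, and the open square, jejunum VSG replicate 1, lies by the ileal triangles.

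Across the 16 libraries, the genes most like each member on the jointly scaled log2 scale, among 12855 genes with a mean above 50, are given by Pearson correlation as a description, since libraries share segments, mice and depth. Gata4 was nearest to Taco1 (0.98), followed by Pggt1b and the carboxylesterase gene Ces2g. For Gata5 the nearest were Atp9a (0.93), the riboflavin transporter gene Slc52a3 and Chmp1a, and for Gata6 they were Ankrd28 (0.92), Slc2a7 and Adh6a. Onecut2 was nearest to Slc16a12 (0.98), Cenpk and Cmtm7. Pdx1 was nearest to the homeobox gene Nkx6-3 (0.95), which was 37.5 to 257 in the duodenum and listed at 0 in all 10 other libraries, then to Prss16 and the enteropeptidase gene Tmprss15. Cdx1 had the lowest leading value, with Fgfbp1 (0.86, and 0.80 without jejunum VSG replicate 1), then Sh3bgrl3 and Gnpnat1. Cdx2 was nearest to Hist1h2bc (0.88) and Vcl, and Osr2 to the phospholipase gene Plb1 (0.97), Hsd17b2 and Naaladl1.

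VSG was then compared with sham within each segment to ask whether the operation moved regional identity. No member was called in any segment by limma at the thresholds of the study (p under 0.05, adjusted p under 0.2, a log2 difference over 0.5 and a mean above 50), and none had an unadjusted p under 0.05. In the duodenum 8 members were tested among 16867 genes, of which 0.0237% were called and 6.27% had an unadjusted p under 0.05. The jejunum had 7 members among 15857 genes (0.0126% called, 6.04% under 0.05, and 0.0064% and 5.46% without VSG replicate 1), and the ileum 6 members among 13853 genes (0.0% called, 3.28% under 0.05). Pdx1 in the jejunum and Onecut2 and Pdx1 in the ileum were below the mean of 10 that testing required. The median log2 difference of the tested members was -0.11 (duodenum), -0.27 (jejunum) and 0.30 (ileum), beside 0.01, 0.11 and 0.24 over all genes. Without VSG replicate 1 the jejunal median was -0.11, beside 0.13 over all genes. The p-values measure the spread between mice, and a two-sided exact permutation test could not go below 0.0667 with 4 against 2 libraries, 0.1 with 3 against 2 or 0.333 with 2 against 2.

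Gata6 was lower after VSG in the upper segments and higher in the ileum. Duodenal Gata6, in deposited normalized counts, was 4580, 6108, 4931 and 5913 after VSG and 7583 and 6154 after sham surgery. All VSG libraries were below both sham libraries, by 0.35 ± 0.23 (SE) on the log2 scale (limma adjusted p = 0.880 and exact permutation p = 0.133). The gap was narrow, with VSG replicate 2 at 6108 and sham replicate 2 at 6154, and these libraries change order with equal totals. Jejunal Gata6 was 2792, 3715, 3092 and 3991 after VSG and 6674 and 4245 after sham surgery. Again every VSG library was the lower, with a log2 difference of -0.66 ± 0.34 (SE, limma adjusted p = 0.760; exact permutation p = 0.0667, the smallest this design allows) and of -0.57 ± 0.35 without VSG replicate 1 (exact permutation p = 0.1). Either sham library decided the size of the difference. It was -0.34 without sham replicate 1, and without sham replicate 2 it was -0.99 and Gata6 was called, as were 2710 genes in all, each fit with 1 sham library left. In the duodenum the difference ranged from -0.50 to -0.20 with 1 library left out. Ileal Gata6 was 1962 and 2117 after VSG and 1023 and 1098 after sham surgery, higher in both VSG libraries by 0.94 ± 0.56 (SE, limma adjusted p = 0.736; exact permutation p = 0.333).

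The difference in the VSG effect between segments was tested by limma for members with a mean above 10 in both segments. These were 7 for jejunum minus duodenum (without Pdx1) and 6 against the ileum (without Pdx1 and Onecut2). The jejunal minus duodenal effect, computed within the 6 mice, was -0.31 ± 0.31 (SE) for Gata6 (limma adjusted p = 0.965; exact permutation p = 0.0667) and -0.29 ± 0.31 (SE; exact permutation p = 0.1) without VSG replicate 1, and no member was called among 14718 genes (0.0% called, 4.1% with an unadjusted p under 0.05). Tests against the ileum were chosen after the values were seen, with mouse as a random block. The fitted correlation between libraries of 1 mouse was low, 0.0096 against the duodenum and 0.063 against the jejunum. Gata6 was the 1 member with an unadjusted limma p under 0.05 in each, and its choice after the fact limits that. The ileal minus duodenal effect on Gata6 was 1.297 ± 0.40 (SE), with a limma adjusted p of 0.211, above the threshold. In that test 3.76% of 12943 genes were called and 10.2% had an unadjusted p under 0.05. The ileal minus jejunal effect was 1.60 ± 0.52 (SE, limma adjusted p = 0.453), and 1.51 without jejunum VSG replicate 1, against 0.32% of genes called and 7.92% under 0.05. 

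Some marker sums, in jointly scaled counts, did not overlap between VSG and sham libraries, as Gata6 did not, and these were not tested. In the ileum the summed stem cell markers were 13032 to 18225 after VSG and 8236 to 10792 after sham surgery, and the enterocyte markers 439750 to 652781 and 722409 to 992478. Ileal enteroendocrine sums were 7123 to 8839 after VSG and 3458 to 4032 after sham surgery, and goblet cell sums 235463 to 282022 and 130828 to 212789. Immune sums were 148 to 615 after VSG and 0 to 5.82 in the shallower sham libraries, where 3 reads amount to 5.82 and 10.4. Endothelial sums were 0.985 to 615 after VSG and 0 after sham surgery, and stromal sums were lower after VSG, at 205 to 218 against 592 to 778. Of all genes, 17.0% were higher and 11.6% lower in the ileum without overlap. In the duodenum, enterocyte markers were 86100 to 180249 after VSG and 189742 to 303887 after sham surgery, while enteroendocrine (9972 to 11424 against 8926 to 9857) and immune sums (156 to 1178 against 77.1 to 87.7) were higher after VSG. Stem cell sums overlapped in the duodenum (35496 to 78758 and 44986 to 51360), as did stem cell and enterocyte sums in the jejunum. Jejunum sham replicate 1, which had the highest jejunal Gata6, had the lowest jejunal stem cell sum (9120) and the highest enterocyte sum (834230). The part of these markers in the Gata6 values was not tested.

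The other GATA genes showed smaller or less certain differences. Ileal Gata4 was 1017 and 942 in the deposited VSG values and 510 and 0 in the sham values, so both VSG libraries were higher. No fold is given because of the library listed at 0. That library, sham replicate 2, was the shallowest of all, at 10.9 M implied reads. Ileal Gata5 was lower in both VSG libraries, at 3098 and 3713 against 4080 and 5074, by 0.42 ± 0.42 (SE) on the log2 scale (exact permutation p = 0.333). Together with Gata6, 2 members were higher without overlap in the ileum, as were 17.0% of all genes, and 1 was lower, as were 11.6%. In the duodenum Gata4 differed by -0.12 ± 0.22 (SE) and Gata5 by -0.30 ± 0.27 (SE). The jejunal Gata4 difference of -1.04 ± 1.01 (SE) rested on VSG replicate 1 and was -0.02 ± 0.32 (SE) without it.

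Among the remaining members, duodenal Cdx1 was higher in every VSG library, at 9627, 7697, 7671 and 8647 against 6748 and 7578, by 0.23 ± 0.21 (SE; exact permutation p = 0.133). With Gata6 the lower member, 1 of 8 was apart in each direction in the duodenum, where 6.44% of genes were higher and 8.01% lower without overlap. In the jejunum 6.21% of genes were lower in every VSG library, as Gata6 was. Jejunal Osr2 differed by -0.27 ± 0.35 (SE) with overlap. Without VSG replicate 1 it was 2032, 3372 and 3122 against 3428 and 3756, with every VSG library lower, as for 8.87% of genes, and differed by -0.37 ± 0.37 (SE; exact permutation p = 0.3). Cdx2 differed by -0.11 ± 0.20 (SE, duodenum), 0.0045 ± 0.32 (jejunum, and -0.11 ± 0.32 without VSG replicate 1) and 0.03 ± 0.40 (ileum). Duodenal Pdx1 was 1123, 576, 1184 and 1469 after VSG and 1296 and 2060 after sham surgery, with overlap and a log2 difference of -0.66 ± 0.44 (SE; exact permutation p = 0.333). Ileal Cdx1 was 5692 and 3783 after VSG and 3903 and 2535 after sham surgery, with overlap and a log2 difference of 0.56 ± 0.48 (SE). The jejunal Cdx1 difference was 0.26 ± 0.42 (SE) with VSG replicate 1, the highest library at 11345, and 0.01 ± 0.38 (SE) without it. Ileal Osr2 was 3807 and 2431 after VSG and 4307 and 3732 after sham surgery, again with overlap, and differed by -0.40 ± 0.46 (SE). Duodenal Onecut2 differed by 0.21 ± 0.24 (SE) and Osr2 by 0.08 ± 0.50 (SE). Jejunal Onecut2 without VSG replicate 1 differed by -0.26 ± 0.87 (SE), with VSG replicate 3 at 218.

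**Figure D4:**
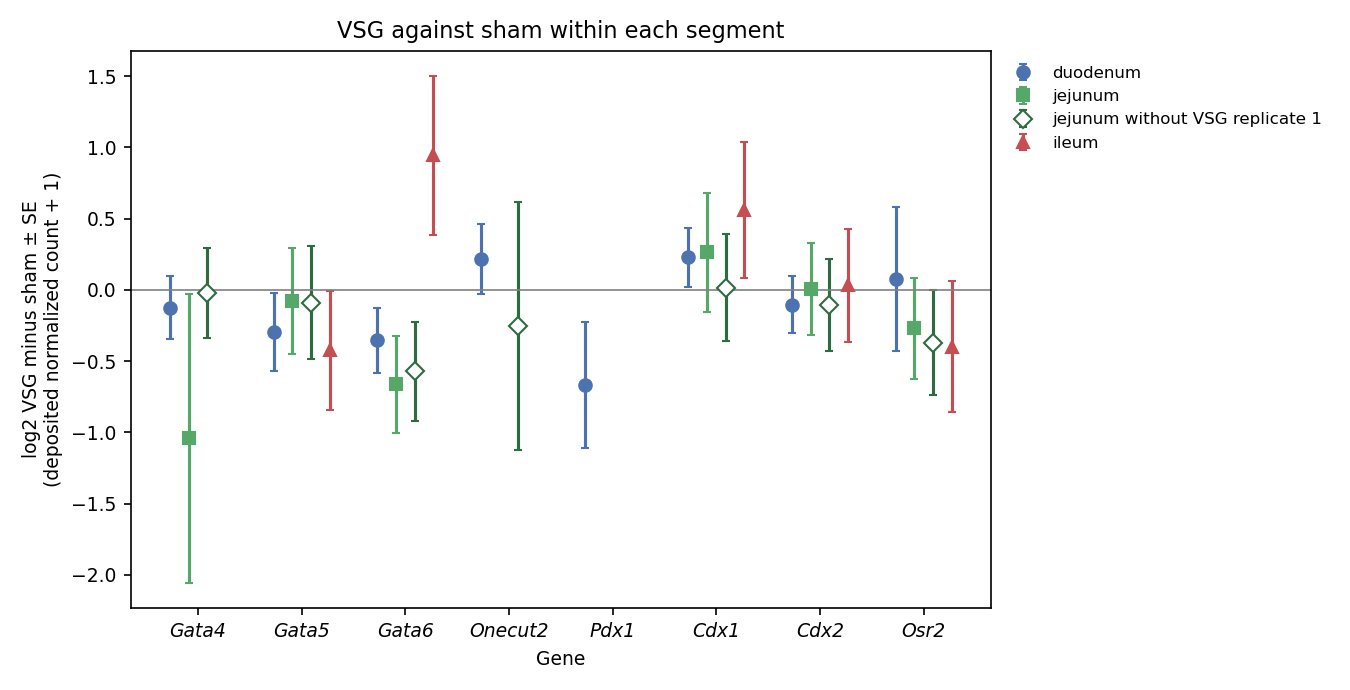
Points give the log2 difference of VSG minus sham with its standard error for each gene, by segment, with open diamonds for the jejunum without VSG replicate 1. Pairs of gene and segment with a library listed at 0 are not drawn. Gata6 lies below 0 in the duodenum (-0.35) and jejunum (-0.66) and above 0 in the ileum (0.94).

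The lists of related genes had no called member in the 3 comparisons of VSG with sham. Of 9 paralogs and cofactors, only 2 were tested in the duodenum and jejunum and 3 in the ileum, none with an unadjusted p under 0.05, and Zfpm1, a GATA cofactor, led them with 3974 to 7685 jointly scaled counts in the duodenum and 239 to 2207 in the ileum. All 10 pan-intestinal factors were tested in each segment, and their median log2 differences of 0.20, 0.39 and 0.70 in duodenum, jejunum and ileum stood beside all-gene medians of 0.01, 0.11 and 0.24. Of the 10 factors of neighbouring organs, 4, 4 and 2 were tested in duodenum, jejunum and ileum. Of the 10 proximal genes, all 10 were tested in the duodenum, where 7 were lower after VSG and 5 of these had an unadjusted p under 0.05, as had 6.27% of all genes in either direction, among them Lct, the lactase gene, at -1.91 ± 0.55 (SE, limma adjusted p = 0.517). The 9 ileal genes had a median of -0.91 in the ileum, with 3 of them, Fabp6, Slc10a2 and Cubn, lower at an unadjusted p under 0.05, beside 3.28% of all genes in either direction. The 5 CDX targets had medians of -0.56, -0.53 and 0.01, while Cdx1 and Cdx2 stayed between -0.11 and 0.56.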

How the data were processed

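RNA-Seq of GFP+ cells gave 16 libraries. Reads were mapped by the authors (mm10, STAR 2.5.3a) and transcripts quantified (Salmon 0.6.0). The deposited signal values are counts that the authors normalized with DESeq2, segment by segment, with a further factor per gene and library for most genes. A deposited 0 can be a failed estimate. The authors' tables of fold changes and p-values were not used. Every column of values belonged to 1 library.

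The members and lists were chosen with earlier results of these data known. Segments were set side by side after joint median-of-ratios scaling, without a test. VSG and sham were compared by limma with a variance trend (version 3.58.1, R 4.3.3) on log2(deposited value + 1) over genes with a mean above 10, and with two-sided exact permutation tests over 15, 10 or 6 splits. The genes named are the members, the 3 genes whose jointly scaled log2 values correlated best with each (mean above 50), the up to 4 genes with the highest mean of each other list, and any list gene called in a segment. Some genes that this rule names are not reported here. The lists were paralogs and cofactors, pan-intestinal factors, factors of neighbouring organs, proximal genes, ileal genes, CDX targets, stem, enterocyte, enteroendocrine, goblet, Paneth, immune, endothelial, stromal, pancreatic acinar and stomach markers. Positions and exon lengths came from GENCODE M21 (48058 of 48440 identifiers found). The limma step was tested on simulated data. Alternatives were other pseudocounts, filters, scalings, no trend, a stricter threshold, blocking on the replicate number, and each library left out in turn. Figures used Python 3.11.15 and matplotlib 3.10.9.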

Additional observations from a re-analysis of the deposited data

Results flagged for a closer look

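Each member was examined for a library far from the others of its group, in groups that overlap, since the VSG libraries of a segment were examined alone and together with sham. Chance alone sets about 1 in 20 independent groups of distinct values apart, which these groups are not. In the jejunum, Gata4 in VSG replicate 1 was 313 jointly scaled counts against 4507 to 6247 in the other 5 libraries. Onecut2 in duodenum VSG replicate 2 was 6373, against 4308 to 4572 in the other VSG and 3691 to 4606 in all other duodenal libraries. Pdx1 in jejunum VSG replicate 2 was 41.2, against 0 in the other jejunal libraries, where any value above 0 would stand apart. The last 2 were set apart both among the VSG libraries and among all libraries of the segment.

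Gata6 differed in opposite directions between VSG and sham, with every VSG library lower in the duodenum (log2 difference -0.35) and jejunum (-0.66) and both higher in the ileum (0.94). The duodenal separation was narrow, with VSG replicate 2 at 6108 and sham replicate 2 at 6154 on the deposited scale, and was lost with equal totals. The tests of the difference, chosen after the values were seen, gave 1.297 for ileum minus duodenum and 1.60 for ileum minus jejunum, with limma adjusted p-values of 0.211 and 0.453, so neither passed the threshold of 0.2.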

How the results depend on the processing

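Among the tests of members in the 3 comparisons of VSG with sham, no alternative gave a call except leaving out 1 library: without jejunum sham replicate 2, 1 member (Gata6) was called, so the jejunal count of called members ranged from 0 to 1 over the libraries left out. Between jejunum and ileum the number of members apart fell from 2 to 1 without joint scaling, with equal totals and with quantile normalization, and was 4 without jejunum VSG replicate 1 and 3 without sham replicate 1 of each segment. Between duodenum and ileum it was 6, and 7 without joint scaling, and the members apart changed as well. The duodenal minus ileal difference of Cdx2 turned to 0.69 without joint scaling. The deviations of same-numbered VSG and sham mice had correlations from -0.049 to 0.054. With 2 sham libraries, the deviations of one mirror those of the other, so these correlations cannot decide whether the numbers pair mice. The replicate block changed no member's call, with 0 genes called in duodenum and jejunum, and the turned values under the block were 0.051 (Gata4, duodenum), 0.13 (Gata5, jejunum) and -0.061 (Cdx2, jejunum). No paired fit was possible in the ileum, whose VSG and sham numbers are not shared. Jejunal Gata6 ranged from -0.99 to -0.34 and duodenal Gata6 from -0.50 to -0.20 over the libraries left out. Jejunum sham replicate 1, with the highest jejunal Gata6, had a total of 47103200 normalized counts, where the other jejunal libraries had 33473800 to 34476900. With equal totals the jejunal Gata6 difference is therefore smaller, and the median of the jejunal members was -0.04, beside 0.34 over all genes. Jejunal Gata5 also turned, to 0.0033 with quantile normalization and 0.15 with equal totals. Leaving out 1 library turned small differences, which ranged from -0.44 to 0.59 (Osr2, duodenum), -0.43 to 0.27 (Gata5, jejunum), -0.22 to 0.75 (Cdx1, jejunum), -0.11 to 0.16 (Cdx2, jejunum) and -0.26 to 0.32 (Cdx2, ileum). For the jejunal minus duodenal effect the ranges were -1.36 to 0.13 (Gata4), -0.20 to 0.63 (Gata5), -0.37 to 0.44 (Cdx1), -0.063 to 0.27 (Cdx2) and -0.92 to 0.23 (Osr2). The cause of these turns was not tested. All-gene calls were 4, 2 and 0 in duodenum, jejunum and ileum, 43, 61 and 463 without the trend, and reached 259, 2710 and 631 when 1 library was left out, which mostly left a group of 1.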

Other observations

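Markers of the secretory lineages were present throughout these sorted cells. The summed enteroendocrine markers were 8926 to 11424 (duodenum), 3770 to 27023 (jejunum) and 3458 to 8839 (ileum). The goblet cell markers summed to 61436 to 180701, 92182 to 328219 and 130828 to 282022, and the Paneth cell markers to 88075 to 183069, 29598 to 222757 and 4137 to 110343, in the same order.

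Markers of non-epithelial cells had lower sums. Immune and endothelial cells were excluded by the sort through CD45 and CD31, and stromal cells were not a target of it. The summed immune markers reached 1178 (duodenum), 674 (jejunum) and 615 (ileum). The endothelial markers reached 230, 265 and 615, and the stromal markers 1558, 315 and 778.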
